A study of Mus musculus with 6 samples.

Results

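The Sall genes encode zinc finger transcription factors related to the Drosophila protein spalt, and the mouse has the members Sall1, Sall2, Sall3 and Sall4. The members were taken as every probe that the deposited table assigns to 1 of these 4 gene names, which gave 8 of 45281 probes, and 7 of the 8 passed the filter on detection. All 4 genes, of 28902 gene names in the table, were among the 12631 genes that passed it. The family was chosen by the measured values of Sall3, which was among the genes with the largest difference between the low iPS clone and the iPS line, so Sall3 in every comparison, and every member in that comparison, are described below without a test. Sall1, Sall2 and Sall4 came in by name, and in the comparisons with ES cells they are given with a test.

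The RNA of 3 mouse lines of strain background B6 was hybridised to 6 Illumina bead arrays, 2 to a line. The iPS line (induced pluripotent stem cells, body cells returned to an embryo-like state) is labelled PB-Oct4.2A.cherry iPS-/-, the low iPS line bears the same name with the mark (low) and the clone name cl2.5, and the ES line (embryonic stem cells, grown from the early embryo) carries neither mark. The labels do not name the gene that the -/- sign refers to. All 3 lines grew in medium with knockout serum replacement, LIF, 3 µM of CHIR99021 (an inhibitor of the kinase GSK3) and 1 µM of PD0325901 (an inhibitor of the kinase MEK), and each kind of cell is 1 line, so the arrays show the spread within a line and not between lines of a kind.

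Sall proteins carry pairs of C2H2 zinc fingers along their length and a short stretch at the start of the protein through which Sall1 and Sall4 bind the NuRD complex, a chromatin remodeller with histone deacetylase activity. In mouse ES cells Sall4 is a factor of the pluripotency network that works beside Oct4 and Nanog, and Sall1 is bound to many of the same genes. Later in development Sall1 is needed for the kidney and Sall3 for cranial nerves and the palate.

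A probe counted as detected on an array at a detection p-value under 0.05 against the negative controls, which 35.9% to 37.5% of probes reached, and the median intensity of the undetected probes lay between 80.1 and 88.6. Across genes, the 2 arrays of a line had r = 0.981 to 0.989, and arrays of different lines had r = 0.956 to 0.981. The pair of iPS replicate 2 and ES replicate 1 (0.9814) lay above the pair of ES arrays (0.9807). All 10 markers of pluripotent stem cells, among them Nanog, Zfp42, Esrrb and Klf4, were detected on all 6 arrays, while Pou5f1, the gene of Oct4, had mean log2 intensities of 12.20 in ES, 10.99 in iPS and 8.92 in low iPS. Of the fibroblast and feeder markers, 6 of 10 passed the filter. Their summed normalised intensity was 1298 and 864 in iPS, 1049.8 and 1235 in low iPS and 902 and 1508 in ES. Vim alone made up 28.1% (ES replicate 2) to 85.8% (low iPS replicate 2) of that sum. Without Vim it was 381 and 252 in iPS, 219 and 176 in low iPS and 253 and 1084 in ES. Col1a1, Col3a1, Twist2 and Postn did not pass the filter, and of 8 neural progenitor markers only Nes did.

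Sall3 separated the lines most. On its bright probe the deposited intensities were 529 and 446 in iPS, 192 and 151 in ES and 119 and 143 in low iPS. Both iPS arrays lay far above the other 4, and both low iPS arrays lay under both ES arrays, by as little as 143 against 151. After background correction and quantile normalisation the log2 intensities were 9.03 and 8.54 in iPS, 6.99 and 6.23 in ES, and 5.49 and 6.23 in low iPS, where the higher low iPS array and the lower ES array nearly met. Sall3 was thus lower in low iPS than in iPS by a log2 difference of -2.93 ± 0.35 (SE, n = 2 arrays per line; 7.61-fold), a value that led to the choice of the family. In iPS it stood above ES by 2.18 ± 0.35 (4.52-fold), and in low iPS its log2 difference from ES was -0.75 ± 0.35 (1.68-fold).

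The bright Sall3 probe was detected on 6 of 6 arrays, with detection p-values of 0.00641 and 0.00107 in low iPS and 0 elsewhere. The low iPS intensities lay near the background, so the size of the difference depends on how background is removed: without background correction it was -2.0 (4.0-fold) against iPS, iPS against ES was 1.61 (3.05-fold), and low iPS against ES was -0.39. The second Sall3 probe was detected on 0 of 6 arrays, at 83.8 and 89.3 in iPS, 71.5 and 76.5 in ES and 75.1 and 74.6 in low iPS, and gives no fold. The pattern of Sall3 therefore rests on 1 probe.

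**Figure D1:**
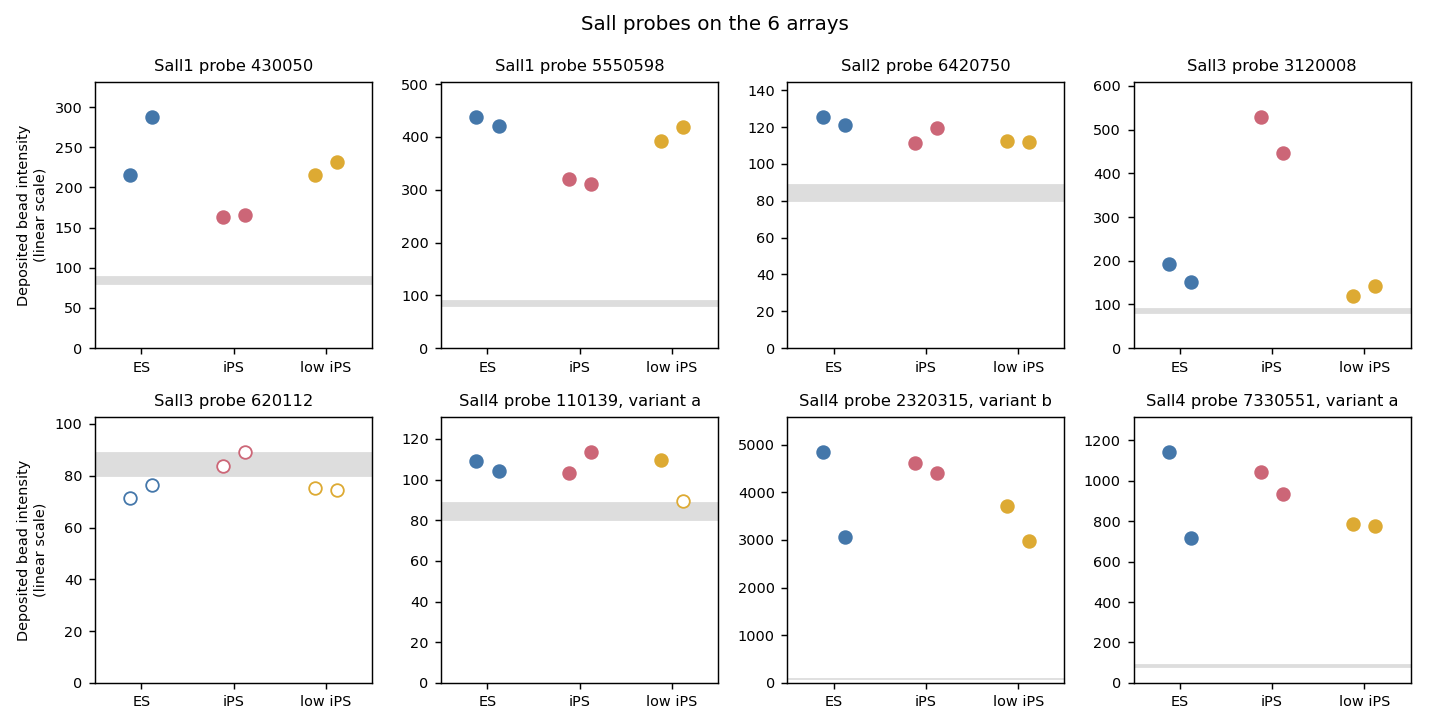
Deposited bead intensity (linear scale, each panel with its own axis from 0) of the 8 Sall probes on the 2 arrays of each line, with filled points where the probe was detected and open points where it was not; the grey band spans the median intensities of undetected probes on the 6 arrays. The bright Sall3 probe stands at 446 to 529 in iPS and at 119 to 192 on the other 4 arrays, while the second Sall3 probe was detected on no array and lies in, under or, on iPS replicate 2 at 89.3, just above the band.

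Sall4, the member with an established role in ES cells, was detected in all 3 lines on both its bright probes. The probe assigned to transcript variant b gave 4849 and 3066 in ES, 4606 and 4404 in iPS, with 3713 and 2977 in low iPS. A probe assigned to variant a gave 1144 and 718 in ES, 1045 and 933 in iPS, with 788 and 777 in low iPS. On both probes the 2 ES arrays lay far apart and spanned the iPS values, and both low iPS arrays lay under both iPS arrays. On the probe used for the gene, that of variant b, the log2 difference of low iPS from iPS was -0.61 ± 0.28 (1.52-fold), and the probes of variant a gave -0.49 and -0.45.

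Against ES, Sall4 gave -0.29 ± 0.28 in low iPS (limma adjusted p = 0.64, 95% interval of the difference from -0.94 to 0.36) and 0.32 ± 0.28 in iPS (adjusted p = 0.67, from -0.33 to 0.97). Neither passed, and the sign turned with 1 ES array: without ES replicate 1 low iPS against ES was 0.10, and without ES replicate 2 iPS against ES was -0.07. The third Sall4 probe, also of variant a, had intensities between 89.2 and 113.7, was detected on 5 of 6 arrays and had the same sign as the other probes in each comparison. The 3 probes therefore gave no sign that the variants differed in direction between lines, though the probes' difference from each other was not tested.

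Sall1, whose product binds NuRD as that of Sall4 does, was lowest in iPS, the line in which the mean of Sall4 was highest. Its brighter probe gave 438 and 421 in ES, 392 and 419 in low iPS and 319 and 311 in iPS, and its other probe 215 and 288 in ES, 216 and 232 in low iPS and 163 and 165 in iPS. On both probes the iPS arrays were the lowest of the 6, and the low iPS and ES arrays either met or overlapped. The log2 difference of low iPS from iPS was 0.32 ± 0.19 on the brighter probe and 0.57 ± 0.22 on the other. Against ES, iPS gave -0.40 ± 0.19 on the brighter probe (limma adjusted p = 0.39, 95% interval from -0.84 to 0.04) and -0.78 ± 0.22 on the other, and low iPS gave -0.08 ± 0.19 on the brighter (adjusted p = 0.87, from -0.52 to 0.36). None of the tests passed. The difference of low iPS from ES was smaller than its SE, and its sign turned without low iPS replicate 1 or ES replicate 1 (0.003 and 0.01).

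Sall2, a member expressed in the nervous system and studied as a growth regulator, was measured by 1 dim probe. Its intensities were 125 and 121 in ES, 111 and 119.6 in iPS, with 113 and 112 in low iPS, close above the background on each array and detected on 6 of 6. The 6 values lay within a narrow range, with ES highest and the iPS and low iPS arrays interleaved before normalisation. On the log2 scale low iPS differed from iPS by -0.24 ± 0.19. Against ES the difference was -0.38 ± 0.19 in low iPS (limma adjusted p = 0.33, 95% interval from -0.82 to 0.07) and -0.14 ± 0.19 in iPS (adjusted p = 0.81, from -0.58 to 0.30). Without ES replicate 1 the latter was 0.01, and without background correction the 3 differences were -0.09, -0.16 and -0.06.

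**Figure D2:**
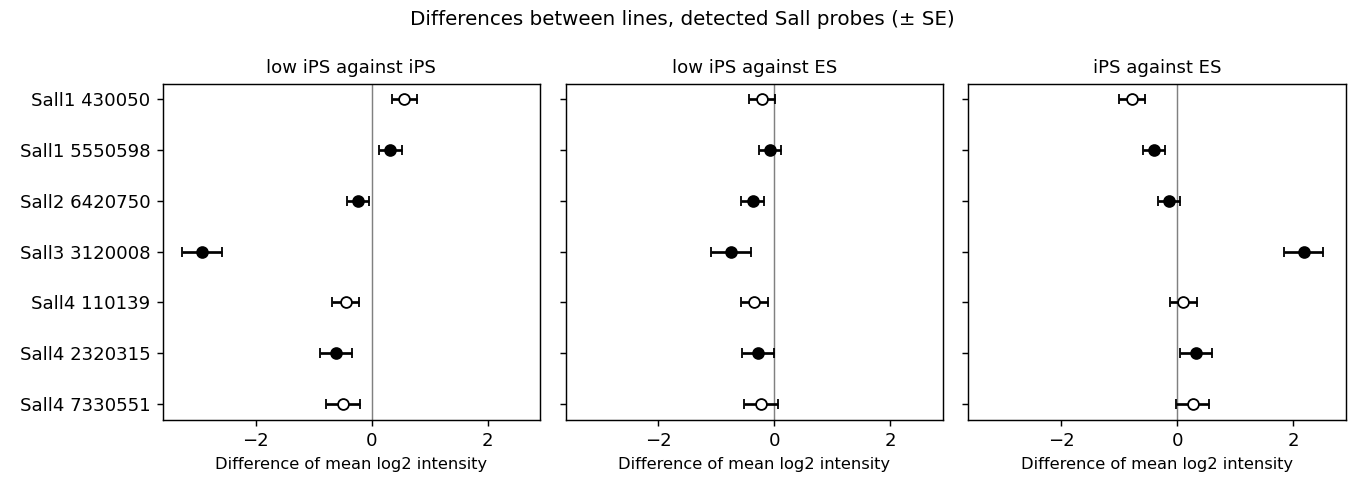
Difference of mean normalised log2 intensity between lines (horizontal axis, ± SE from the limma fit over all kept probes, n = 2 arrays per line) for the 7 Sall probes that passed the detection filter, with filled points for the probe that stands for the gene. Sall3 is at -2.93 and 2.18 in the comparisons that involve iPS, while the other probes lie between -0.78 and 0.57, and probes of 1 gene share their sign in each comparison.

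In the comparison of low iPS with iPS, 2.24% of the 12631 genes passed an adjusted p under 0.05, 1.16% higher and 1.08% lower. The arrays of the 2 lines did not overlap for 4 of 4 members, against 48.8% of all genes, a comparison from which nothing is read because it chose the family. In low iPS against ES, 4.16% of genes passed, 2.26% higher and 1.91% lower, and 0 of the 3 members tested did in the limma fit (0 also at an unadjusted p under 0.05). There the arrays did not overlap for 2 of 4 members, Sall2 and Sall3, against 50.5% of all genes. In iPS against ES 0.808% of genes passed, 0.428% higher and 0.38% lower, 0 of the 3 members tested did (0 also at an unadjusted limma p under 0.05), and the arrays did not overlap for Sall1 and Sall3, 2 of 4, against 42.2% of all genes. The counts of arrays that did not overlap include Sall3, which was chosen on its values, so nothing is read from them. Of the members that came in by name, only Sall2 did not overlap in low iPS against ES, and only Sall1 in iPS against ES. Each test used only the brightest probe of the gene. For Sall1 in iPS against ES the other probe gave a larger difference, -0.78 ± 0.22, so the result at the unadjusted threshold may depend on the probe. The 3 comparisons share arrays, so their values are not independent.

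The spans between the highest and the lowest line mean differed between the members. Sall3 had a span of 2.93 on the log2 scale, at percentile 99.6 of all genes, against a median span of 0.37 over all genes. That span is the difference between iPS and low iPS that led to the choice of the family, so nothing is read from its percentile. Sall4, Sall1 and Sall2 had spans of 0.61, 0.40 and 0.38, of which those of Sall1 and Sall2 were near the median gene. The replicate SD pooled over the lines was 0.47 for Sall3 and 0.35 for Sall4, above the median of 0.21 over all genes, and 0.14 for Sall1 and Sall2.

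The genes lying beside each member on its chromosome were followed to see whether the members moved with their neighbourhood. They were the 5 protein-coding genes on each side in the RefSeq order of GRCm38.p6, 40 in all, of which 23 passed the detection filter. In low iPS against iPS 0 of these 23 passed the limma fit (2 higher and 1 lower at an unadjusted p under 0.05), and in iPS against ES 0 passed (1 higher and 4 lower at an unadjusted p under 0.05). In low iPS against ES 1 passed and was higher (3 higher and 4 lower at an unadjusted p under 0.05). Over all genes, 8.18% were higher and 8.03% lower at the unadjusted threshold in low iPS against iPS. The shares were 6.61% and 7.53% in iPS against ES, and 9.41% and 10.1% in low iPS against ES, where 2.26% passed as higher after adjustment.

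Around Sall3 on chromosome 18, 7 of 10 neighbours were tested, and their differences from iPS in low iPS ran from -0.40 to 1.02, beside -2.93 for Sall3. Atp9b, the next gene on one side, which encodes a phospholipid flippase, differed by -0.40 between low iPS and iPS and by 0.08 between iPS and ES. Zfp236 and Zfp516, zinc finger genes on the other side, differed by -0.01 and -0.36 between low iPS and iPS and by -0.09 and -0.02 between iPS and ES. The 1 neighbour that passed was Mbp, the gene of myelin basic protein, with log2 intensities of 7.73 and 8.26 in low iPS, 6.90 and 7.05 in iPS and 6.18 and 5.75 in ES. The 3 lines did not overlap for Mbp, and the order, with low iPS highest, was not that of Sall3. It rose by 2.03 ± 0.25 in low iPS against ES (4.07-fold, limma adjusted p = 0.00805), with 1.12 on its other detected probe. Without low iPS replicate 2 this call was lost (adjusted p = 0.0619). Among the 187 other tested genes of chromosome 18, 0 had a lower value than Sall3 in low iPS against iPS, and all 187 lay below it in iPS against ES. Sall3 was chosen for its value in the first comparison, and the second shares the iPS arrays with it. Nothing is therefore read from these ranks or from the distance of Sall3 to its neighbours.

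Sall4 on chromosome 2 lies between relatives of the genes that flank Sall3: Atp9a, Nfatc2, Kcng1 and Tshz2 are near Sall4, and Atp9b, Nfatc1, Kcng2 and Tshz1 near Sall3. Nfatc1, Nfatc2, Kcng1, Kcng2 and Tshz2 did not pass the detection filter. Of the 6 tested neighbours of Sall4, 0 passed the limma fit in any comparison (0 also at an unadjusted p under 0.05), with Atp9a at 0.26 and Zfp64, a zinc finger gene, at -0.02 in low iPS against iPS.

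**Figure D3:**
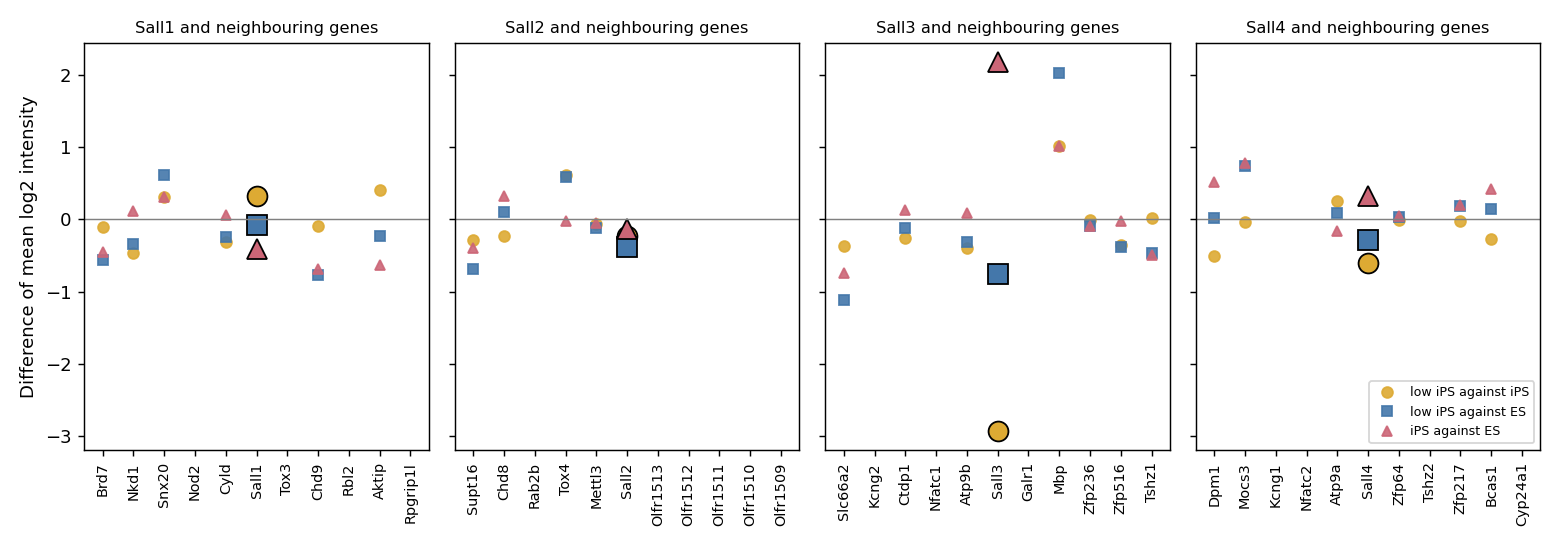
Difference of mean normalised log2 intensity between lines (vertical axis) for each Sall gene, drawn larger with a black edge, and for its 5 protein-coding neighbours on each side in gene order (horizontal axis, not to distance); a gene with no point did not pass the detection filter. Sall3 lies at -2.93 in low iPS against iPS, and at 2.18 for iPS against ES, while its tested neighbours lie between -0.40 and 1.02 in the first and between -0.74 and 1.01 in the second.

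Sall1 lies on chromosome 8, whose genes as a whole were shifted in the same way as Sall1. In iPS against ES the 484 other tested genes of chromosome 8 had a median difference of -0.32, the lowest of 20 chromosomes, and 82.0% of them were lower in iPS, beside -0.40 for Sall1. In low iPS against iPS their median was 0.15, the highest of the 20, with 32.6% lower in low iPS, beside 0.32 for Sall1. In low iPS against ES it was -0.16, beside -0.08 for Sall1. Within chromosome 8, 39.0% of genes lay below Sall1 in iPS against ES and 70.2% in low iPS against iPS, so that Sall1 stood in the middle part of its chromosome in both. The medians of the other 19 chromosomes ran from -0.28 to 0.31 in iPS against ES and from -0.47 to 0.03 in low iPS against iPS, with X at one end each time. Of single genes of chromosome 8, 0 passed as higher and 3 as lower in iPS against ES, and 16 as higher and 2 as lower in low iPS against iPS. Over all genes, 0.428% passed as higher and 0.38% as lower in iPS against ES, and 1.16% and 1.08% in low iPS against iPS. The part of the chromosome in the values of Sall1 was not tested.

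The members' other chromosomes had medians close to 0. Chromosome 18 had -0.07 in low iPS against iPS, and 0.02 for iPS compared with ES, chromosome 2 had -0.03 and 0.03, and chromosome 14, which holds Sall2, had 0.01 and -0.03.

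**Figure D4:**
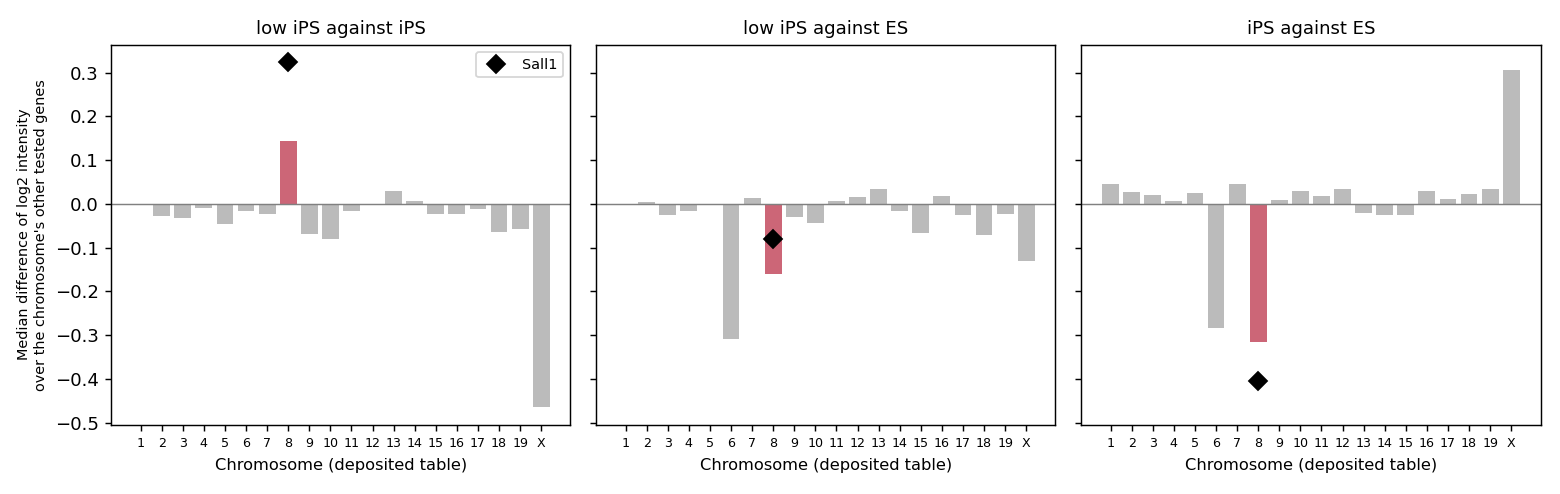
Median difference of normalised log2 intensity (bars, from 0) over the tested genes of each chromosome, without the Sall genes, in the 3 comparisons, with chromosome 8 in red and Sall1 as a black diamond. Chromosome 8 has a median of 0.15, -0.16 and -0.32 from left to right, and Sall1 lies at 0.32, -0.08 and -0.40.

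For each member, the 5 named genes with the highest Pearson r over the 6 arrays were taken among genes whose line means span at least 0.5 of the member's span. The arrays fall into 3 lines, so such values mostly restate the order of the lines. For Sall3 they were Efhd1 (r = 0.987), which encodes a mitochondrial calcium-binding protein, the growth factor gene Pdgfc (0.985), the scaffold gene Iqgap2 (0.982), Rassf4 (0.978) and the thrombin receptor gene F2r (0.973), out of 477 candidates. Efhd1, Pdgfc and Rassf4 were detected on 0 of 2 low iPS arrays, so their low iPS values stand at background. F2r had log2 intensities of 12.39 and 12.07 in iPS, 10.56 and 10.005 in ES and 10.09 and 10.34 in low iPS. As for Sall3, both iPS arrays were highest, but low iPS and ES overlapped. Pdgfc had 7.21 and 6.90 in iPS, 5.87 and 5.32 in ES and 4.65 and 4.81 in low iPS, the order of Sall3 with no overlap.

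For Sall4 the genes were L1td1 (r = 0.987), an RNA-binding protein gene expressed in pluripotent cells, the clock gene Arntl (0.987), Pigbos1 (0.985), Ube2n (0.984) and Dhx37 (0.983), out of 6381 candidates. L1td1 had 9.97 and 9.42 in iPS, 9.71 and 8.68 in ES and 8.97 and 8.42 in low iPS, so it shared with Sall4 the gap between the ES arrays. For Sall1 they were Arl4d (0.996), Farsa (0.986), Dhps (0.974), Iqcf3 (0.972) and Trim6 (0.965), and Farsa and Dhps, which encode a phenylalanyl-tRNA synthetase subunit and deoxyhypusine synthase, also lie on chromosome 8. For Sall2, whose probe was dim, they were Kmt2b, Gpatch8, Kdm2a, Ube4b and Zbtb21, with r from 0.980 to 0.994.

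**Figure D5:**
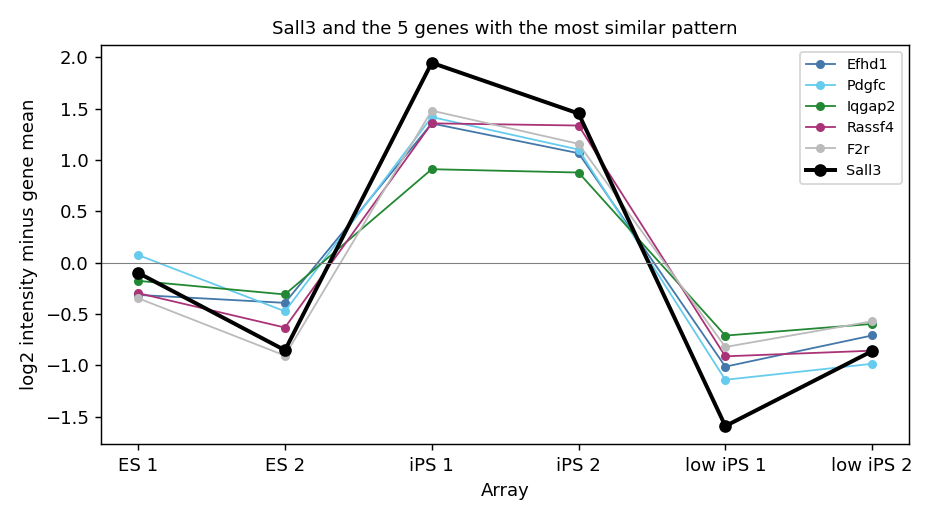
Normalised log2 intensity on each array, minus the gene's mean over the 6 arrays (vertical axis), for Sall3 and the 5 genes with the highest r to it; lines join the arrays for reading only. All 6 genes are highest on both iPS arrays; Efhd1, Pdgfc and Rassf4 stand at background in low iPS, so the depth of their fall there is not measured.

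The genes whose products Sall proteins act with were then followed in the same fit. Of 14 NuRD subunits 10 were tested, and 0 passed the limma fit in each of the 3 comparisons. At an unadjusted p under 0.05, 1 was higher and 1 lower in low iPS against iPS, 2 were higher and 1 lower in low iPS against ES, and 2 were higher and 1 lower in iPS against ES. The shares over all genes were 8.18% and 8.03%, 9.41% and 10.1%, and 6.61% and 7.53% in the same order. Chd4, the remodelling ATPase of the complex, differed by -0.05 in low iPS against iPS and by -0.60 in low iPS against ES, and Mbd3, a core subunit in ES cells, by -0.34 and -0.42. Against ES, the other kept probes of Chd4 gave 0.03, -0.56 and -0.55 in low iPS. Mta3 and Rbbp7 went the other way, at 0.63 and 0.56 in low iPS against ES. In low iPS against iPS, Chd3 was at 0.56 and Mta1 at -0.47. Of the 10 subunits, 7 were below 0 in low iPS against iPS and 5 in low iPS against ES. The median difference of the list was -0.08 in low iPS against iPS and -0.01 in low iPS against ES, beside -0.02 and -0.02 over all genes. Hdac1, Gatad2a and Cdk2ap1 were not analysed here.

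Of 13 pluripotency factors 11 were tested, and Pou5f1 was the 1 that passed the limma fit, as lower, in each comparison. Its log2 difference was -2.07 ± 0.17 between low iPS and iPS, -3.27 ± 0.17 between low iPS and ES and -1.20 ± 0.17 between iPS and ES (limma adjusted p = 0.00416, 0.00061 and 0.0303). The last of these calls was lost when any 1 array was left out and with the arrays of those 2 lines alone. Over all genes, 1.08%, 1.91% and 0.38% passed as lower in the same order of comparisons. The level of Sall3 did not follow the order of Pou5f1, which was highest in ES, whereas Sall3 was highest in iPS, and Sall4 gave 1.52-fold less in low iPS than in iPS where Pou5f1 gave 4.21-fold less. Nanog and Esrrb, partners of Oct4 in ES cells, differed by 0.36 and -0.43 in low iPS against iPS without passing.

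The product of Sall3 is known from human cells to bind the DNA methyltransferase DNMT3A, and Sall4 has been linked to the Tet enzymes, which oxidise methylated DNA. Of 8 such enzyme genes 6 were tested and 0 passed the limma fit in each comparison. At an unadjusted p under 0.05 these had 2 lower in low iPS against iPS, 3 lower in low iPS against ES and 1 lower in iPS against ES. These counts, out of 6 genes, stand beside 8.18% of all genes higher and 8.03% lower in low iPS against iPS. The shares were 9.41% and 10.1% in low iPS against ES, and 6.61% and 7.53% in iPS against ES. The median difference of the 6 was -0.56 in low iPS against iPS, -0.53 in low iPS against ES and 0.15 in iPS against ES. Over all genes these medians were -0.02, -0.02 and -0.003, and the list was not tested as a set. Dnmt3l, a cofactor of the methyltransferases, had log2 intensities of 13.91 and 12.99 in iPS, 12.70 and 12.76 in ES and 12.24 and 11.48 in low iPS, the same order of lines as Sall3. Its difference of -1.59 ± 0.35 in low iPS against iPS did not pass (limma adjusted p = 0.0743), but it passed with a mean-variance trend (0.0341) and without iPS replicate 2 (0.0408). Tet2 gave -1.08 ± 0.29 there (limma adjusted p = 0.115) and passed with the arrays of those 2 lines alone (0.0318). Under the other settings that kept 2 arrays a line it did not pass, with limma adjusted p from 0.0734 (replicate block) to 0.259 (no detection filter). Dnmt3a and Tet3 did not pass the detection filter.

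Of 8 heterochromatin proteins 5 were tested and 0 passed the limma fit in each comparison (0 also at an unadjusted p under 0.05), with differences between -0.40 and 0.36. Of 13 kidney and limb regulators, genes that act in the organs where Sall1 and Sall4 are needed, 8 were tested. Of these 1 passed, as lower in low iPS against ES, where 1.91% of all genes did. Over all genes, 2.24% passed in low iPS against iPS, 4.16% in low iPS against ES and 0.808% in iPS against ES. At an unadjusted limma p under 0.05 the shares higher and lower were 8.18% and 8.03%, 9.41% and 10.1%, and 6.61% and 7.53% in the same order. Gli3, a transcription factor of Hedgehog signalling in the limb, had 6.40 and 6.77 in low iPS, 7.23 and 7.15 in iPS and 7.95 and 7.95 in ES, with no overlap between lines. It fell by 1.36 ± 0.19 in low iPS against ES (2.57-fold, limma adjusted p = 0.0136), a call lost without either low iPS array or without ES replicate 2, and differed by -0.60 ± 0.19 in low iPS against iPS and by -0.76 ± 0.19 in iPS compared with ES without passing.

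Of 9 markers of extraembryonic endoderm, a lineage that needs Sall4 in the mouse, 6 were tested, and 2 rose in low iPS against each of the other lines. Over all genes, 1.16% passed the limma fit as higher in low iPS against iPS and 2.26% in low iPS against ES. Gata6, a transcription factor of that lineage, rose by 2.00 ± 0.33 against iPS and by 2.28 ± 0.33 against ES (limma adjusted p = 0.0324 and 0.0145). Dab2, detected on 1 of 2 iPS arrays, rose by 2.48 ± 0.29 and 2.18 ± 0.29 (limma adjusted p = 0.012 and 0.0105). The other kept probes of Dab2 were unequal: probe 1050672 gave 0.10 and 0.41, and probe 1940347 gave 3.22 and 2.77. Without low iPS replicate 1 these 4 calls were lost, and that of Gata6 against iPS was also lost without any other array of those 2 lines. Sparc (0.72 and 1.03), Lama1 (0.70 and 0.38), Pdgfra (0.24 and 0.14) and Sox7 (-0.23 and -0.02) did not pass, and Gata4, Sox17 and Foxa2 did not pass the detection filter. The summed normalised intensity of the 6 was 4121 and 4262 in low iPS, 2014 and 2831 in iPS and 1884 and 2249.9 in ES, of which Sparc alone made up 74.3% to 83.1%. Without Sparc it was 973 and 908 in low iPS, 340.3 and 511 in iPS and 485 and 449.9 in ES.

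Of 9 trophectoderm markers 7 passed the filter and summed to 4136 and 5059 in low iPS, 1821 and 2699 in iPS and 2659 and 1911 in ES, of which Tfap2c alone made up 76% to 88.3%. In low iPS 0 passed the limma fit against iPS (3 higher and 1 lower at an unadjusted p under 0.05) and 0 against ES (3 higher and 0 lower). Over all genes the unadjusted shares were 8.18% higher and 8.03% lower against iPS, and 9.41% and 10.1% against ES. Gata3, a transcription factor of that lineage, was higher in iPS than in ES, where its probe was not detected, at least 2.87-fold (limma adjusted p = 0.0402), with a difference of -0.73 between low iPS and iPS. The call of Gata3 was lost without 1 array in 5 of 6 cases, all but iPS replicate 2. Their part in the values of the Sall genes was not tested. In bulk RNA, fewer cells that express a gene and less of its RNA per cell cannot be told apart.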

How the data were processed

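Per the file headers, the deposited table gives 45281 probes with 2 columns an array, a mean intensity over beads and a detection p-value. The deposited intensity values were not on a common scale across arrays, as their medians ran from 87.3 to 96.0. Whether background had been subtracted is not stated. Per the labels, the kit TotalPrep-96 served to amplify and label the RNA. No source used here names the scanner software. The authors' processed value table was not used, because its probe names match no probe column of the other table, and with 2 arrays a line all values have limited precision.

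With limma 3.58.1 (R 4.3.3), nec removed the background by way of the detection p-values (offset 16), and the log2 values were then quantile normalised. A probe was kept if detected at p under 0.05 on 2 or more arrays (18175), and each gene was represented by its brightest kept probe. RefSeq's gene table (GRCm38.p6) served to update names (27760 probes by symbol, 7994 by synonym, 9527 kept). A single lmFit and eBayes model held the means of the 3 lines (degrees of freedom 3 residual, 4.27 prior), with Benjamini-Hochberg adjustment over 12631 genes. The fit was tested on simulated data.

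The members, gene lists, tests and alternatives were chosen with earlier results of these data known. The genes named are the members, their neighbours, the 5 genes most similar to each member, and, of each list, up to 4 genes that passed. Others, such as Dnmt3l, Tet2 and Chd4, were named after their values were seen. No probe, promoter or protein sequence is shown.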

Additional observations from a re-analysis of the deposited data

How the results depend on the processing

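Across 10 other settings the differences of the 4 members kept their sign in all 3 comparisons, and no member tested passed in any. Only no background correction, an offset of 50, median scaling and the mean of kept probes gave differences other than the main ones. The other settings kept the values of the gene's probe on the same arrays, so the sign could not change under them. The size of the Sall3 difference depended on the background correction: low iPS against iPS was -2.0 without it and -2.36 with an offset of 50, and iPS against ES was 1.61 and low iPS against ES -0.39 without it, where Sall2 also shrank to -0.09, -0.16 and -0.06. Leaving out 1 array gave -3.29 to -2.56 for Sall3 in low iPS against iPS, -1.13 to -0.37 in low iPS against ES and 1.80 to 2.55 in iPS against ES. It turned the sign of Sall1 in low iPS against ES (-0.17 to 0.0116; 0.003 without low iPS replicate 1, 0.0116 without ES replicate 1), Sall4 in low iPS against ES (-0.67 to 0.10; without ES replicate 1), Sall2 in iPS against ES (-0.29 to 0.0103; without ES replicate 1) and Sall4 in iPS against ES (-0.0651 to 0.70; without ES replicate 2), none of which passed.

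The count of genes past the threshold, 283, 526 and 102 in low iPS against iPS, low iPS against ES and iPS against ES, moved more. It was 58, 191 and 24 without the detection filter, and 44 for iPS against ES with the arrays of those lines alone. Without 1 array it ran from 35 (iPS replicate 1) to 392, with 71 and 38 without low iPS replicate 1 and 2; from 74 (low iPS replicate 2) to 569, with 161 without low iPS replicate 1 and 182 without ES replicate 2; and from 14 (iPS replicate 1) to 222 (ES replicate 1), with 61, 44, 44 and 22 without iPS replicate 2, low iPS replicate 1, low iPS replicate 2 and ES replicate 2. The cause was not tested.

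The labels number the replicates 1 and 2 in each line without saying what the number marks. Deviations of same-numbered arrays correlated across genes at 0.18 to 0.32, and with the replicate number as a block the counts were 649, 911 and 272, with no tested member past the threshold; Dnmt3l in low iPS against iPS and Chd9 in low iPS against ES then passed (adjusted p = 0.0225 and 0.0377), as did the markers Nes in low iPS against iPS and Acta2, Gata3, Krt7 and Sparc in low iPS against ES. Sparc passed there under 8 of 15 settings. The calls of Gata6 and Dab2 in low iPS, and of Gata3 in iPS against ES, were lost without the detection filter. The calls of single list and marker genes under each setting, and marker sums without their brightest gene, were added after seeing the data. The alternatives with the authors' processed values and with the slide as a block were not run, since the probe names could not be matched and no slide is named. Sall2, the second Sall3 probe and the dim Sall4 probe lay close to the background, which limits what their values can show.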

Other observations

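Supt16, a histone chaperone gene 5 genes from Sall2 on chromosome 14, was read by 2 detected probes with unequal values. Its brighter probe gave log2 differences of -0.69 ± 0.18 in low iPS against ES and -0.39 ± 0.18 in iPS against ES, neither past the threshold, and the other gave -3.38 and -3.20. Supt16 was singled out for its probes after its values were seen.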
